A study of Rattus norvegicus with 14 samples.

Results

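Rat primary Schwann cells treated with CPT-cAMP were compared with vehicle-treated cells at the level of single transcription start sites (TSSs). A TSS was taken when it exceeded 1 RPM (its reads scaled to the size of the whole library) in at least 2 of the 6 libraries. This kept 4119 of the 4993 candidate TSSs of the series (82.5%) at 2851 named genes, in 6 of the series' 14 libraries. All cells were wild type and were sold as primary rat Schwann cells. They had been expanded with 10 nM neuregulin and 2 µM forskolin, an activator of adenylyl cyclase, and both factors were withdrawn after the cells had attached to laminin. All cells first spent 1 day in medium with 10% FBS and neither factor. All then received medium with 5% FBS, which was renewed daily for 4 days in the 3 control populations (labelled vehicle), while the 3 cAMP populations passed after 1 day to the same medium with 250 µM CPT-cAMP, renewed daily for 3 days. The schedule was thus the same length in both groups. The protocol adds no neurons, and a drug stands in for contact with the axon in this culture model. The libraries were made by Tn5Prime, in which template switching fixes the first base of each read to the 5′ end of a captured RNA. Candidate TSSs had been defined in adult sciatic nerve near promoters with H3K4me3 and SOX10 ChIP-Seq peaks, so genes whose TSS is not of that kind were not analysed here.

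Cyclic AMP is made by adenylyl cyclases downstream of G-protein-coupled receptors and activates protein kinase A, which phosphorylates CREB and thereby induces genes with a cAMP response element. In Schwann cells the signals that act through the receptor GPR126 are imitated in culture by cell-permeable cAMP analogs such as CPT-cAMP. Cells so treated leave the proliferating immature state, turn on EGR2 (KROX20) and the myelin genes, and lower the transcription factor JUN.

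The labelled cell type was checked against marker genes. Of 10 Schwann cell markers, 6 had a candidate TSS, among them Sox10, S100b, Erbb3, Ngfr and Egr2, and their summed level was 5161 to 5332 RPM in control and 5348 to 5823 RPM in cAMP libraries. Of 10 fibroblast markers, 3 had one, and their sum was 792 to 892 RPM in control and 388 to 486 RPM in cAMP libraries. Most of that sum came from Col1a1, Pdgfra did not exceed 1 RPM in any library, and Pdgfrb, which pericytes also express, was higher with cAMP. Of 10 macrophage markers only Csf1r had a candidate TSS, with no read in any of the 6 libraries, and none of the 7 endothelial, 6 pericyte or smooth muscle, 7 neuronal and 4 adipocyte genes listed had one. In whole cultures fewer cells of a type and less RNA per cell cannot be told apart, and the part of fibroblasts in the results on collagen was not tested. Sox10 had 136, 149 and 140.3 RPM in control and 123, 117 and 137 RPM in cAMP libraries and was not called (log2 fold change -0.17 ± 0.12, adjusted p = 0.353). The libraries held 51438602 to 79940274 reads, of which 35.6 to 37.0% fell in candidate TSSs. Across all tested TSSs the correlation between libraries was 0.950 to 0.956 within a group and 0.881 to 0.887 between groups, and no library stood apart from its group.

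Of the 4119 TSSs, 530 (12.9%) were higher and 452 (11.0%) were lower with cAMP, at 406 and 414 genes, by limma on log2(RPM + 1) with an adjusted p under 0.05. Control and cAMP libraries did not overlap at 1509 TSSs (36.6%), and 954 of the 982 called TSSs were among them. The middle log2 fold change of the 4119 TSSs was 0.02. Among these TSSs, which were all defined in adult nerve, large changes were more often upwards than downwards. Several TSSs of the same gene count separately here. A log2 fold change of 2 or more was reached by 157 higher TSSs and of -2 or less by 64 lower ones, and an absolute value of 4 by 30 and 8. In adult nerve the TSSs that rose had a median of 26.5 RPM, those that fell 18.2 RPM and those not called 7.22 RPM. Over the 6 libraries compared, the medians of the same sets were 44.5, 55.1 and 11.0 RPM. Called TSSs were thus more used in culture as well, and the part of level in the calls was not tested. SOX10 peaks overlapped 60.8% of the higher, 64.6% of the lower and 57.6% of the TSSs not called. Taking each gene by the TSS with the highest level in nerve, 382 of 2832 genes (13.5%) were higher and 393 (13.9%) were lower, and the median log2 fold change was -0.03. Counts of gene lists below use this one TSS per gene and are read against these percentages. The lists were chosen with earlier results of these data known, so their counts and medians are descriptions. Values of single libraries are given in the order of replicates 1, 2 and 3, means are ± SD (n = 3 libraries per group), and log2 fold changes of RPM + 1 are ± SE with limma's adjusted p. Where a group is near 0 RPM the log2 fold change depends on the added 1 RPM.

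**Figure D1:**
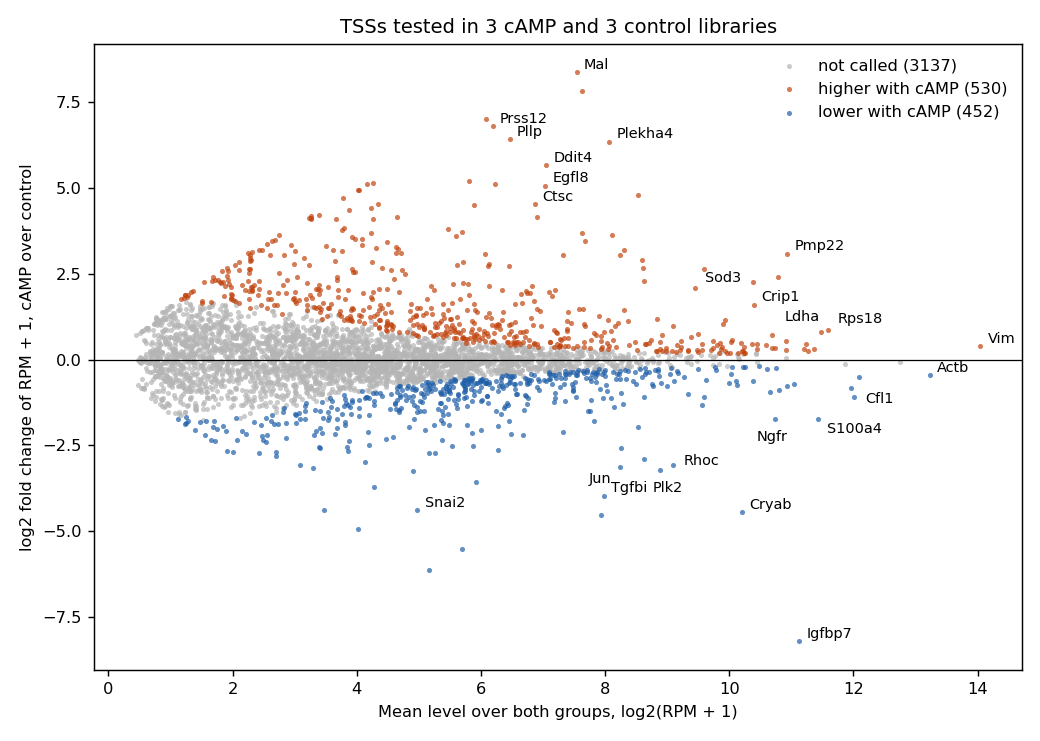
Log2 fold change of RPM + 1 (cAMP over control, vertical axis) against the mean level of each of the 4119 tested TSSs (log2(RPM + 1) over both groups, horizontal axis). Each point is a TSS, in orange where higher with cAMP (530), in blue where lower (452) and in grey where not called (3137), and the points far from 0 lie more often above the line (157 at 2 or more) than below it (64 at -2 or less).

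Of the 25 functional lists, the myelin genes had the highest median. In that list 9 of 12 tested members were higher and 1 was lower, and the median log2 fold change was 2.84, or 3.17 with Ncmap, which had no control read, at its bound. Mbp, which holds the cytoplasmic faces of compact myelin together, had 194, 212 and 239 RPM in control and 1490.4, 1178 and 1340.1 RPM in cAMP libraries (6.22-fold, log2 fold change 2.63 ± 0.09, adjusted p = 2.18e-15). Pllp, a tetraspan proteolipid of myelin, was near absent from the control libraries at 2.52, 1.33 and 0.0389 RPM and had 165, 170.3 and 185 RPM with cAMP (log2 fold change 6.42 ± 0.37, adjusted p = 7.91e-12). The groups of both genes were far apart. Mag, the adhesion protein of the inner myelin membrane next to the axon, had 1 read in the 3 control libraries together and 27.2, 39.2 and 25.4 RPM in the cAMP libraries (log2 fold change 4.95 ± 0.48, adjusted p = 4.65e-08). Of the pair of Pmp22 promoters, the one downstream had 451, 394 and 391 RPM in control and 3991, 3184 and 3302 RPM in cAMP libraries (log2 fold change 3.08 ± 0.08, adjusted p = 1.21e-17), and treated libraries were again all above controls. The list counts Pmp22 by a different TSS, its main one in nerve, whose call was lost with DESeq2. Cd9, a tetraspanin of the plasma membrane, rose by 3.05 on the log2 scale. The member called lower was the main nerve TSS of Cnp, an enzyme that keeps cytoplasmic channels of myelin open, with 459, 483 and 529.8 RPM in control and 419, 375 and 397 RPM in cAMP libraries (log2 fold change -0.30 ± 0.09, adjusted p = 0.0117). This call was lost without cAMP replicate 2 (-0.27) or control replicate 3 (-0.25), which leaves no lower member, and another Cnp TSS with more reads was called higher (log2 fold change 0.19 ± 0.06, adjusted p = 0.0262), a call lost without cAMP replicate 1 (0.15), control replicate 1 (0.20), control replicate 2 (0.19) or control replicate 3 (0.18).

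Below the top 3 of the upward ranking (Mal, Sostdc1 and Bcas1), the steepest rises were spread over proteases, signalling adaptors and membrane proteins. Prss12 encodes neurotrypsin, a secreted protease that cleaves the synaptic organiser agrin. It had 0.0700, 0.0917 and 0.875 RPM in control and 161, 134 and 136 RPM in cAMP libraries, so that it passed from near absence to a level shared by all treated libraries (log2 fold change 6.79 ± 0.36, adjusted p = 1.52e-12). Plekha4, a phosphoinositide-binding protein with a pleckstrin homology domain (chr1:102596476-102596550, rn5), had 5.51, 6.94 and 4.32 RPM in control and 457, 551 and 575 RPM in cAMP libraries. The control values were all low and the cAMP values all high, 94.4-fold apart (log2 fold change 6.34 ± 0.19, adjusted p = 1.04e-16). Ddit4, the stress-responsive inhibitor of mTORC1 also called REDD1 (chr20:31317133-31317145, rn5), had 3.76, 8.07 and 2.20 RPM in control and 246, 261 and 272 RPM in cAMP libraries (55.5-fold, log2 fold change 5.65 ± 0.28, adjusted p = 7.84e-13). Egfl8, a secreted protein with EGF-like domains, had 8.26, 3.24 and 10.2 RPM in control and 229, 282 and 249 RPM in cAMP libraries (35.0-fold, log2 fold change 5.06 ± 0.27, adjusted p = 2.52e-12). Ctsc, a lysosomal dipeptidyl peptidase that activates serine proteases, had 11.3, 10.3 and 5.52 RPM in control and 254, 216 and 199.7 RPM in cAMP libraries (24.6-fold, log2 fold change 4.52 ± 0.23, adjusted p = 9.33e-13). In each of these the lowest treated library was far above the highest control library. The ranking took only TSSs whose groups did not overlap. Tgfbr3, or betaglycan, a coreceptor of TGF-β ligands, had 0.875, 1.24 and 0.0194 RPM in control and 25.9, 48.8 and 38.7 RPM in cAMP libraries (log2 fold change 4.53 ± 0.46, adjusted p = 1.12e-07), and Plekhb1, another membrane protein with a pleckstrin homology domain, had 9.16, 5.96 and 0.739 RPM in control and 136, 96.1 and 104 RPM in cAMP libraries (log2 fold change 4.49 ± 0.43, adjusted p = 4.65e-08).

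Further genes of this rank encode kinases, channels, cytoskeletal proteins and a chromatin enzyme. Groups without overlap were again a condition of the ranking. Among kinases and their scaffolds, Aatk, a membrane-bound kinase first found in apoptosis, had 7.39, 1.02 and 0.447 RPM in control and 126, 85.9 and 110.1 RPM in cAMP libraries (log2 fold change 5.20 ± 0.46, adjusted p = 1.17e-08), and Cab39l, a scaffold of the LKB1 kinase complex, rose by 4.41 on the log2 scale. Tmem88, a membrane protein that restrains Wnt signalling through Dishevelled, had 5.85, 1.85 and 2.82 RPM in control and 135, 151 and 148 RPM in cAMP libraries (log2 fold change 5.11 ± 0.30, adjusted p = 1.34e-11). Its treated libraries stood close together above all controls. Kcnk5, a background potassium channel, and Ano4, of the anoctamin family of channels and scramblases, rose by 4.36 (a call lost with DESeq2) and 4.10 on the log2 scale, and Usp6nl, which switches off RAB5, by 4.13. Smtn, a smoothelin that binds actin, had no read in any control library and 18.4, 18.0 and 15.0 RPM with cAMP. Against the floor of 3 reads per library this is at least 328-fold higher (log2 fold change 4.17 ± 0.50, adjusted p = 1.35e-06). Dmd, dystrophin, which ties the cytoskeleton to the dystroglycan complex facing the basal lamina, had 1 control read in all against 3406 reads with cAMP (log2 fold change 4.13 ± 0.52, adjusted p = 2.35e-06). Kdm6b, a demethylase that removes the repressive H3K27 mark, had 2.49, 0.0153 and 1.42 RPM in control and 37.5, 46.3 and 22.0 RPM in cAMP libraries (log2 fold change 4.08 ± 0.49, adjusted p = 1.22e-06), with control replicate 2 nearly empty and all treated libraries above all controls. TSSs of this on-off kind, with every control library at or under 3 reads, numbered 40 among the higher calls, and 11 lower calls had every cAMP library at or under 3 reads.

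**Figure D2:**
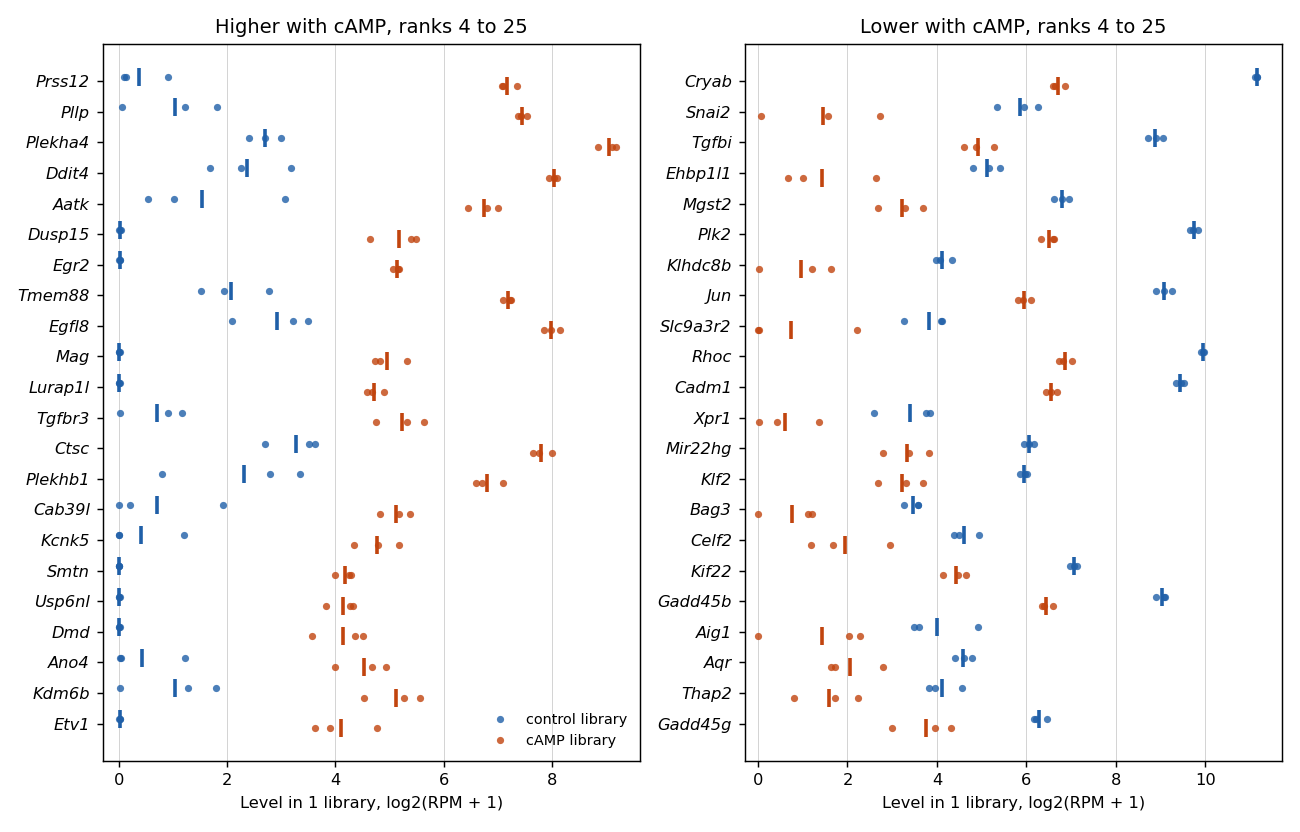
Levels of the ranked genes in each library (log2(RPM + 1), horizontal axis), at ranks 4 to 25 upwards (left) and downwards (right), with 3 blue points for control and 3 orange points for cAMP libraries and a bar at each mean. In every gene drawn the control and cAMP points do not overlap, which the choice of the genes required, as for Plekha4 with 4.32 to 6.94 RPM in control and 457 to 575 RPM in cAMP libraries.

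Most tested genes of cholesterol synthesis were higher, from the head of the pathway to its last steps. Cholesterol is the main lipid of myelin, is made by Schwann cells themselves, and its synthesis starts from acetyl-CoA and passes through mevalonate, squalene and lanosterol. Of 19 tested genes 12 were higher and 1 was lower. The median was 0.99 on the log2 scale against -0.03 over all genes, and among the 12 enzymes 11 were higher and none was lower, with a median of 1.25. Hmgcs1, which makes HMG-CoA at the head of the pathway, had 61.2, 46.9 and 56.4 RPM in control and 250.2, 185 and 220.3 RPM in cAMP libraries (3.99-fold, log2 fold change 1.97 ± 0.15, adjusted p = 9.31e-10). All treated libraries exceeded all controls. In the mevalonate branch, Mvk (log2 fold change 1.45 ± 0.18), Pmvk (1.04 ± 0.18) and Idi1 (1.46 ± 0.13), the kinases and the isomerase that yield the isoprene units, all rose. Fdft1, which joins these units into squalene, rose by 1.02 ± 0.18. In the steps after lanosterol, Cyp51 had 55.8, 53.1 and 73.2 RPM in control and 248, 223 and 186 RPM in cAMP libraries (log2 fold change 1.84 ± 0.15, adjusted p = 3.63e-09), and Tm7sf2 (1.46 ± 0.20), Msmo1 (0.99 ± 0.11) and Sc5d (1.05 ± 0.17) rose with it. Hsd17b7 was also called (log2 fold change 1.74 ± 0.55, adjusted p = 0.0237), but its groups overlapped and the call was lost without cAMP replicate 1 (1.49), cAMP replicate 3 (1.46), control replicate 1 (1.73) or control replicate 3 (1.34), and with edgeR, no filter or a pseudocount of 0.1. Insig1, the sterol sensor that holds back SREBP, rose by 0.80 ± 0.23, a call lost without cAMP replicate 2 (0.65) or control replicate 3 (0.69). The member that fell was Npc2, which hands cholesterol out of the lysosome, with 526, 530.1 and 553 RPM in control and 334, 327 and 325 RPM in cAMP libraries (log2 fold change -0.70 ± 0.08, adjusted p = 6.67e-07).

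**Figure D3:**
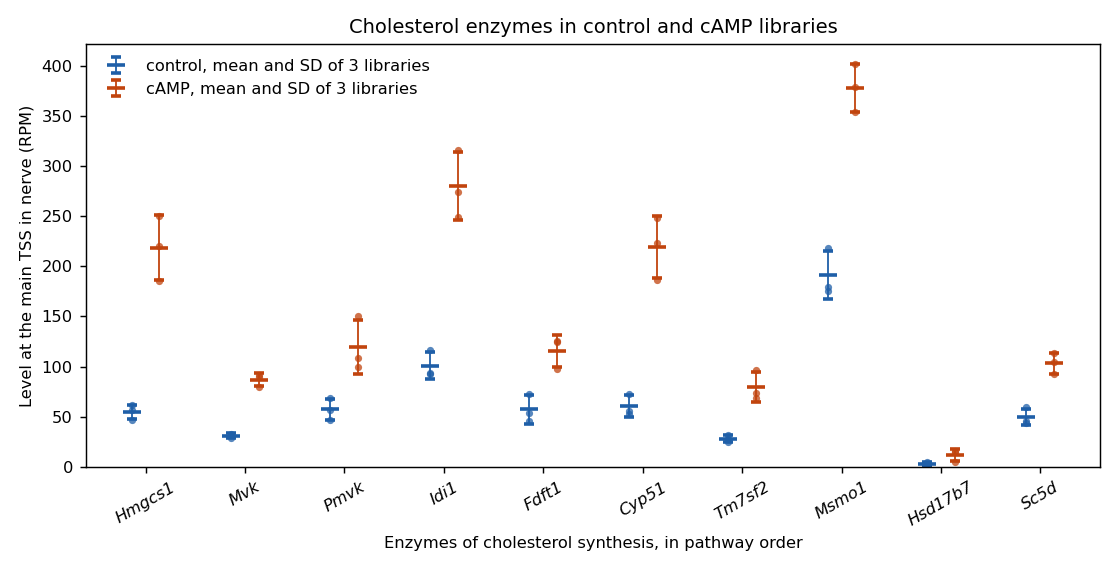
Level of 10 cholesterol enzymes called higher, at the main TSS in nerve (RPM, vertical axis from 0), in pathway order along the horizontal axis. Points are libraries (blue control, orange cAMP), long dashes are means and bars are SDs of 3 libraries, and only Hsd17b7 has overlapping groups, while Hmgcs1 rose from 46.9 to 61.2 RPM in control to 185 to 250 RPM in cAMP libraries.

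Other lipid genes were called in both directions. Of 23 tested genes of fatty acid, sphingolipid and phospholipid synthesis, 10 were higher and 4 lower, with a median of 0.31. Fabp5, an intracellular carrier of fatty acids, had 277, 263 and 259 RPM in control and 1151, 1118 and 1105 RPM in cAMP libraries (4.22-fold, log2 fold change 2.07 ± 0.08, adjusted p = 2.56e-15). Its treated libraries stood within a narrow range, above every control. Acly, which supplies cytosolic acetyl-CoA, rose by 1.15 ± 0.16, and Aldh3a2, which oxidises fatty aldehydes, by 1.62 ± 0.35. Plpp3, a phosphatase of lysophosphatidic acid and other lipid phosphates, rose by 3.18 ± 0.52, whereas its relative Plpp1 fell from 320.0, 325 and 313 RPM to 95.2, 126 and 117 RPM (log2 fold change -1.50 ± 0.12, adjusted p = 1.72e-09). Acer3, a ceramidase, rose by 2.14 ± 0.21. Agpat2, which builds phosphatidic acid, fell (log2 fold change -1.90 ± 0.23, adjusted p = 1.54e-06), as did Ptdss1, a phosphatidylserine synthase (log2 fold change -0.99 ± 0.18, adjusted p = 3.18e-04). By branch, fatty acid genes had 5 higher and 1 lower of 9, sphingolipid genes 4 higher and none lower of 7, and phospholipid genes 1 higher and 3 lower of 7.

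Of the cAMP pathway itself, 11 genes were tested, of which 3 were higher and none was lower, with a median of -0.07. Without cAMP replicate 2, without control replicate 1 and under the replicate block 1 member was lower. Nr4a1, an orphan nuclear receptor and an immediate target of CREB, had 12.9, 14.6 and 11.9 RPM in control and 142, 110.5 and 104 RPM in cAMP libraries (log2 fold change 3.08 ± 0.21, adjusted p = 1.77e-10). Every treated library was several times above every control. Pkig, an inhibitor of protein kinase A, rose by 0.90 ± 0.16 and Fos by 0.81 ± 0.15. The remaining 8 members, among them subunits and anchors of protein kinase A and the CREB family, were not called.

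The transcription factors of the Schwann cell list changed in both directions, with 6 higher and 6 lower of 23 and a median of 0.10. Egr2 (KROX20), the zinc finger factor on which myelination depends (chr20:24556234-24556237, rn5), had 0.0175, 0.0153 and 0 RPM in control and 34.6, 35.0 and 32.5 RPM in cAMP libraries, that is 2 reads in all controls against 6945 with cAMP. The ratio of summed reads was 2959 with an exact 95% counting interval of 819 to 24437, and against the floor of 3 reads per library the fold was at least 652 (log2 fold change 5.11 ± 0.46, adjusted p = 1.65e-08). Id2 and Id4, which sequester basic helix-loop-helix factors, both rose. Id2 had 58.6, 68.4 and 59.4 RPM in control and 594, 521 and 599 RPM in cAMP libraries (log2 fold change 3.18 ± 0.11, adjusted p = 2.10e-15) and Id4 rose by 1.27 ± 0.11. Wwtr1 (TAZ), the Hippo pathway coactivator, rose by 1.20 ± 0.18. Jun, the AP-1 subunit that marks immature and injured Schwann cells (chr5:117960865-117960911, rn5), had 606, 541 and 475 RPM in control and 55.1, 59.7 and 67.4 RPM in cAMP libraries. This was an 8.90-fold fall with no overlap, which the ranking required (log2 fold change -3.13 ± 0.12, adjusted p = 7.13e-15). Snai2 (Slug), a repressor known from epithelial-mesenchymal transition, had 60.8, 39.3 and 75.3 RPM in control and 1.96, 0.0535 and 5.60 RPM in cAMP libraries (log2 fold change -4.39 ± 0.50, adjusted p = 5.64e-07). Klf2, a zinc finger factor best known from endothelium, had 56.9, 61.3 and 63.9 RPM in control and 5.44, 8.93 and 11.9 RPM in cAMP libraries (log2 fold change -2.72 ± 0.29, adjusted p = 1.84e-07), and the factors Ets1 and Klf6 fell (log2 fold changes -2.50 and -1.08).

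Genes of the growth factor and MAPK response were called in both directions. Of 32 tested genes 11 were higher and 8 lower, with a median of -0.25, but among 6 feedback genes 4 were higher and 1 lower (median 2.53), and among 13 immediate early genes 3 were higher and 6 lower (median -0.77). Dusp6, the cytoplasmic phosphatase that switches off ERK, had 5.79, 4.84 and 8.98 RPM in control and 69.8, 106 and 90.1 RPM in cAMP libraries (log2 fold change 3.59 ± 0.28, adjusted p = 1.41e-09). All treated libraries were far above all controls. Dusp15, a membrane-anchored phosphatase of the same family, had 3 control reads in all and 41.1, 43.9 and 23.8 RPM with cAMP, a ratio of 2093 with a counting interval of 716 to 10152 (log2 fold change 5.15 ± 0.47, adjusted p = 2.32e-08). Etv1, an ETS factor that responds to neuregulin, had 0, 0.0153 and 0.0194 RPM in control and 26.1, 14.0 and 11.4 RPM in cAMP libraries (log2 fold change 4.08 ± 0.53, adjusted p = 3.39e-06). Neither gene exceeded 3 reads in any control library. Among receptors and kinases, Lpar1, a receptor of lysophosphatidic acid on Schwann cells, rose by 2.72 ± 0.19, and Pdgfrb by 3.84 ± 0.47. Deptor, an inhibitor of mTOR, rose by 2.01 ± 0.19 and Pik3r1, the regulatory subunit of PI3 kinase, by 1.51 ± 0.29. Tnfrsf12a, the receptor of TWEAK, had 576, 561 and 619 RPM in control and 154, 138 and 159.8 RPM in cAMP libraries (log2 fold change -1.95 ± 0.10, adjusted p = 5.05e-13), below every control in every treated library. Zfp36, which destabilises cytokine mRNAs, Ier5, an early response gene, and Map2k1 (MEK1) fell (log2 fold changes -2.16, -2.05 and -1.57).

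Motifs were searched for in the 250 bases before the RefSeq start of each gene, on both strands, because members of these lists are textbook targets of the factors that read them. The cAMP response element, with the letters TGACGTCA, stood in 4.79% of 292 matched promoters of higher genes, in 1.92% of 313 of lower genes, in 3.83% of 1673 of genes not called and in 1.70% of all 27457 rat promoters. The CArG box, read by serum response factor, stood in 2.40%, 1.60%, 1.14% and 1.5% of the same sets. In the growth factor list 4 of 21 promoters held a CArG box (Egr2 and Etv1, both higher, and Klf6 and Zfp36, both lower). The promoters of Egr2 (RefSeq, GRCr8, chr20:21054442-21054691, minus strand), Ldha (chr1:106507842-106508091, plus strand) and Plk2 (chr2:43702286-43702535, plus strand) are shown as examples of a CArG box at a gene that rose and of the same cAMP response element at a gene that rose and at a gene that fell, with the motif in capitals.
Egr2: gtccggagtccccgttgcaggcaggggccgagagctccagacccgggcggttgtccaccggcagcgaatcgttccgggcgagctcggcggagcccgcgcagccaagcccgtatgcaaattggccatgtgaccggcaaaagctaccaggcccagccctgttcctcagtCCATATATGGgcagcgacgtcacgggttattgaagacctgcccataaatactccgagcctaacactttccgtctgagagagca
Ldha: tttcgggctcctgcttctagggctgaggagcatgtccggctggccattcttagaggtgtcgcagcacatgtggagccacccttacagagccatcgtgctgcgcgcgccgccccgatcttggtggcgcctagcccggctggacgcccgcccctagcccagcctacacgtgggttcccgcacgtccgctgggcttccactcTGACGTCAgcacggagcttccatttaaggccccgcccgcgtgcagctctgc
Plk2: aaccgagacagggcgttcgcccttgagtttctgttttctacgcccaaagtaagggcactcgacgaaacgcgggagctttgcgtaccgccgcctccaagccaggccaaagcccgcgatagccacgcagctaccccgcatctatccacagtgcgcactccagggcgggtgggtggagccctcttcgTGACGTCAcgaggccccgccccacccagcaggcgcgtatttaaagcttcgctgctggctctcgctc

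The first base of the motif lay 83, 51 and 66 bases before the start in these genes. A match describes the letters and is neither a shown binding site nor a cause, and the same 8 letters stood before Plk2, which fell, and before Ldha, which rose.

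Plk2 and the Gadd45 genes led the fall in the list of cell cycle and growth arrest genes. All 4 lower calls of this list were among its 9 tested inhibitors. Only 1 cyclin or kinase and 3 replication genes were tested, and none of them was lower. Of 13 tested members 3 were higher and 4 lower (median -0.32), and the 3 higher calls, among them Cdkn1b, an inhibitor of cyclin-dependent kinases, and Pcna, the replication clamp, were all absent with edgeR and without cAMP replicate 1 or 2 or control replicate 1 or 2. Plk2, a polo-like kinase induced by serum and stress (chr2:60970292-60970297, rn5), had 848, 907 and 809 RPM in control and 97.9, 78.8 and 95.3 RPM in cAMP libraries (9.43-fold, log2 fold change -3.23 ± 0.10, adjusted p = 3.22e-16). All 3 Gadd45 genes, which are induced by stress and DNA damage and slow the cell cycle, fell as well. Gadd45b had 548, 477 and 537 RPM in control and 95.9, 80.4 and 82.6 RPM in cAMP libraries (log2 fold change -2.58 ± 0.11, adjusted p = 3.79e-14). Gadd45g had 73.5, 87.5 and 71.3 RPM in control and 14.6, 19.0 and 6.92 RPM in cAMP libraries (log2 fold change -2.53 ± 0.28, adjusted p = 5.05e-07). Gadd45a had 374, 299.7 and 371 RPM in control and 88.6, 95.1 and 117 RPM in cAMP libraries (log2 fold change -1.79 ± 0.13, adjusted p = 3.29e-10). In none of them did a treated library reach a control library, which the ranking required of Plk2, Gadd45b and Gadd45g. Kif22, a kinesin that binds chromosomes, had 139.6, 125 and 133 RPM in control and 16.5, 23.9 and 21.3 RPM in cAMP libraries (log2 fold change -2.64 ± 0.19, adjusted p = 3.73e-10).

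Below the top 3 of the downward ranking (Igfbp7, Fxyd1 and Cited2), the steep falls included secreted proteins, small GTPases and adhesion molecules. Cryab (αB-crystallin), a small heat shock protein, had 2293, 2224 and 2279 RPM in control and 115, 95.6 and 98.9 RPM in cAMP libraries at its main TSS (chr8:53776063-53776067, rn5), a 22.0-fold fall (log2 fold change -4.45 ± 0.08, adjusted p = 3.78e-20). Tgfbi, a matrix protein induced by TGF-β, had 420.5, 527 and 473 RPM in control and 23.4, 37.4 and 28.5 RPM in cAMP libraries (log2 fold change -3.97 ± 0.16, adjusted p = 8.91e-15). Rhoc, a small GTPase that drives actomyosin contraction and migration (chr2:226690987-226691117, rn5), had 989.7, 951 and 997 RPM in control and 105, 112 and 129.6 RPM in cAMP libraries (8.47-fold, log2 fold change -3.08 ± 0.10, adjusted p = 1.69e-16). The drop left about the same level in each treated library. Cadm1, an immunoglobulin-type adhesion molecule, had 729.7, 700.1 and 648 RPM in control and 102, 92.9 and 85.3 RPM in cAMP libraries (7.43-fold, log2 fold change -2.88 ± 0.10, adjusted p = 2.10e-15). Mgst2, a microsomal glutathione transferase, had 111, 97.0 and 122 RPM in control and 5.38, 8.77 and 12.0 RPM in cAMP libraries (12.6-fold, log2 fold change -3.57 ± 0.26, adjusted p = 5.69e-10). Xpr1, which exports phosphate, Celf2, an RNA-binding regulator of splicing, and Slc9a3r2, a scaffold with PDZ domains, fell (log2 fold changes -2.79, -2.66 and -3.08), the call of Slc9a3r2 being lost with DESeq2 and edgeR. Treated and control libraries overlapped in none of these genes, which the ranking required. Bag3, a partner of HSP70 in selective autophagy, was called at a minor TSS (log2 fold change -2.70 ± 0.53, adjusted p = 5.48e-04), a call lost with DESeq2 and edgeR, and not at its main one (-0.32).

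Actin and adhesion genes were often lower. Of 43 tested genes 25 were lower and 4 higher, with a median of -0.46 on the log2 scale, and the lower count was 18 to 27 over the alternatives. Zyx (zyxin), a sensor of tension at focal adhesions, had 105, 93.8 and 98.9 RPM in control and 15.6, 16.9 and 17.4 RPM in cAMP libraries (log2 fold change -2.51 ± 0.20, adjusted p = 1.74e-09). Pxn (paxillin), the adaptor of the same structures, had 93.7, 95.1 and 92.7 RPM in control and 23.1, 19.8 and 18.5 RPM in cAMP libraries (log2 fold change -2.15 ± 0.19, adjusted p = 1.61e-08). In both the 3 treated libraries lay close together and far below the controls. Cfl1 (cofilin 1), which severs filaments, fell from 5695, 5378 and 5814 RPM to 2737, 2595 and 2541 RPM (log2 fold change -1.10 ± 0.05, adjusted p = 4.26e-14). Actb, β-actin itself, had 11005, 11096 and 11236 RPM in control and 7842, 8099.5 and 8275 RPM in cAMP libraries (log2 fold change -0.46 ± 0.04, adjusted p = 1.44e-09), a small change with tight replicates. Cdc42ep3, an effector of CDC42, Gsn (gelsolin) and Actn4 (α-actinin 4) fell (log2 fold changes -2.35, -1.27 and -1.13). Of the roles, 8 of 14 actin and bundling genes, 2 of 3 myosins, 6 of 13 nucleation and small GTPase genes and 9 of 13 adhesion and cortex genes were lower. The members called against the majority were Cav1 (caveolin 1, 2.63 ± 0.54, a call lost with edgeR), Capg, Cnn3 and Anxa2. Capg, which caps filament ends, had 573, 611 and 681 RPM in control and 1212, 1334 and 1295 RPM in cAMP libraries (log2 fold change 1.04 ± 0.07, adjusted p = 3.10e-10), and the call of Anxa2, a membrane and actin linker (0.20 ± 0.07), was lost without cAMP replicate 3 (0.16), control replicate 1 (0.20), control replicate 2 (0.21) or control replicate 3 (0.20).

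The matrix genes had calls in both directions. Of 27 tested genes 6 were higher and 9 lower (median 0.12), none of 7 basal lamina genes was lower, and 5 of 8 processing genes were lower. Vwa1 (WARP), a matrix protein of basement membranes and nerve, had 37.4, 47.4 and 37.3 RPM in control and 539, 446 and 539 RPM in cAMP libraries (12.5-fold, log2 fold change 3.61 ± 0.13, adjusted p = 2.80e-15). Timp3, the metalloproteinase inhibitor that binds to matrix, had 97.2, 103 and 74.5 RPM in control and 672, 635 and 732 RPM in cAMP libraries (log2 fold change 2.89 ± 0.12, adjusted p = 1.57e-14), again with no overlap. Lamb1, the β1 chain of laminin, rose by 2.84 ± 0.41 and Col5a3, the α3 chain of collagen V that Schwann cells make, by 2.66 ± 0.10. The other chains of collagen V, Col5a2 (log2 fold change -1.49 ± 0.18, adjusted p = 1.54e-06) and Col5a1 (log2 fold change -1.72 ± 0.50, adjusted p = 0.0134), fell, the latter call being lost without cAMP replicate 2 (-1.69), cAMP replicate 3 (-1.29) or control replicate 2 (-1.53), and with edgeR or no filter. Col1a1, the main fibrillar collagen and a fibroblast marker, had 789.6, 891 and 892 RPM in control and 456, 366 and 459 RPM in cAMP libraries (log2 fold change -1.01 ± 0.09, adjusted p = 1.35e-08), with no overlap. Serpinh1 (HSP47), the collagen chaperone of the ER, had 1082, 1014 and 1109.5 RPM in control and 360.1, 423 and 517 RPM in cAMP libraries (log2 fold change -1.31 ± 0.10, adjusted p = 6.90e-10). Nearly all of the fibroblast marker sum is Col1a1 itself, the other tested marker, Pdgfrb, was higher with cAMP, and the part of fibroblasts in these collagen values was not tested. Adam9, a membrane metalloprotease, fell by 2.13 on the log2 scale.

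**Figure D4:**
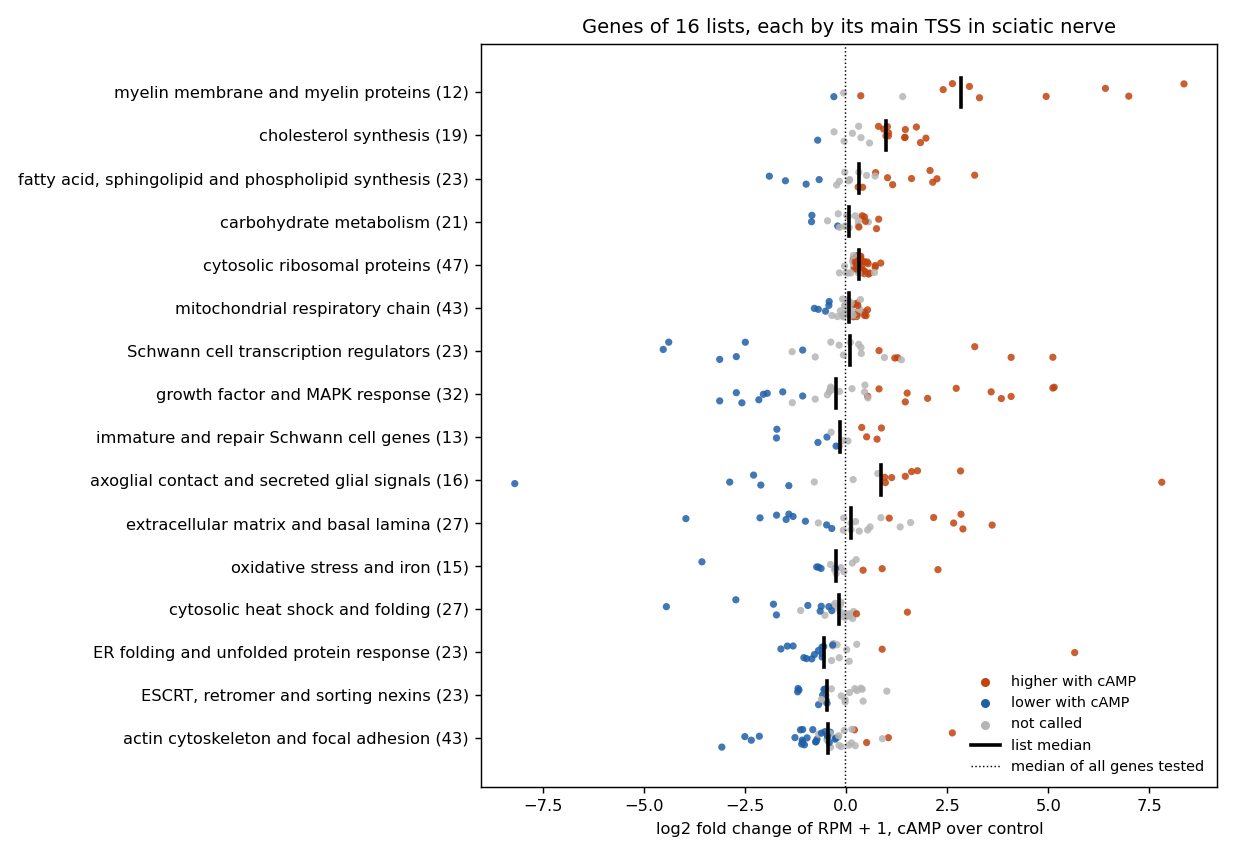
Log2 fold change of RPM + 1 (cAMP over control, horizontal axis) of the tested genes of 16 lists, each gene by its main TSS in nerve, with the number tested in brackets. Points are genes, in orange where higher, blue where lower and grey where not called, the black bar is the list median and the dotted line the median of all genes tested (-0.03), and the myelin median (2.84) lies far to the right and the actin median (-0.46) to the left of it.

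More genes of protein folding in the endoplasmic reticulum were lower than higher. Of 23 tested genes 13 were lower and 2 higher, with a median of -0.56, and 8 were lower without cAMP replicate 3 or without control replicate 3. Atf4, the transcription factor translated under the integrated stress response, had 163, 139 and 121 RPM in control and 53.7, 77.4 and 73.2 RPM in cAMP libraries (log2 fold change -1.05 ± 0.16, adjusted p = 3.90e-05). Xbp1, the factor spliced by IRE1, had 56.6, 125 and 64.0 RPM in control and 41.8, 52.4 and 39.1 RPM in cAMP libraries (log2 fold change -0.79 ± 0.23, adjusted p = 0.0167). Control replicate 2 was highest here, and the call was lost without cAMP replicate 1 (-0.75), cAMP replicate 3 (-0.70) or control replicate 2 (-0.44), and with no filter. Calr (calreticulin), a lectin chaperone, had 357, 344 and 329.8 RPM in control and 246, 232 and 222 RPM in cAMP libraries (log2 fold change -0.56 ± 0.09, adjusted p = 1.19e-04), and Pdia3, the oxidoreductase that works with it, and Fkbp14, a prolyl isomerase for collagen, fell too (log2 fold changes -0.60 and -1.61). Of the 12 chaperones and oxidoreductases 7 were lower and none was higher. The members against the majority were Ddit4 (described above) and Nfe2l2 (NRF2, 0.89 ± 0.18), the regulator of antioxidant genes. The study lists Nfe2l2 among genes with a TSS lower with cAMP. No Nfe2l2 TSS was called lower here, and the value given is that of its main nerve TSS. The ER stress element, with the letters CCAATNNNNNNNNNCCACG, stood in the promoters of 3 of 19 matched members (15.8%), Xbp1, Calr and Hsp90b1, against 0.0765% of all rat promoters. Hsp90b1, the ER form of HSP90, was called lower (log2 fold change -0.34 ± 0.10, adjusted p = 0.0167), but not without cAMP replicate 3 (-0.25) or control replicate 3 (-0.28). The Xbp1 promoter (RefSeq, GRCr8, chr14:84604373-84604622, plus strand) is shown with the element in capitals, its first base 65 bases before the start.
Xbp1: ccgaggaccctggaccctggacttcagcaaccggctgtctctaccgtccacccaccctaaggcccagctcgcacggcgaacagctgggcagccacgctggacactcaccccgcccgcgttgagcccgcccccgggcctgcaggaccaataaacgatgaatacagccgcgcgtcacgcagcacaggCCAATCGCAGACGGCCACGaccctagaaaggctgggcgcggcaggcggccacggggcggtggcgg

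Of the cytosolic heat shock list, 9 of 27 genes were lower and 2 higher, with a median of -0.18. Besides Cryab, the small heat shock genes Hspb6 and Hspb2 fell (log2 fold changes -2.73 and -1.73), the call of Hspb6 being lost with edgeR. Sgtb and St13, cochaperones that bind HSP70, fell (log2 fold changes -1.80 and -0.95). Hspa2, an HSP70 family member, rose by 1.52 ± 0.24, and Hspe1, the mitochondrial HSP10, by 0.26 ± 0.09, a call lost without cAMP replicate 1 (0.24), cAMP replicate 2 (0.25), cAMP replicate 3 (0.28), control replicate 1 (0.23) or control replicate 2 (0.20), and with edgeR, no filter or a pseudocount of 0.1. The heat shock element (searched as TTCNNGAA) stood in 6 of 20 matched promoters (30%) against 7.23% of all promoters, at Hspd1, Hsph1, Cdc37, Hspb6, Hspe1 and Hspa2, of which Hspe1 and Hspa2 were higher and Cdc37 and Hspb6 lower.

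Genes of axoglial contact and secreted signals were called often in both directions, 8 higher and 5 lower of 16 (median 0.87), with 3 lower without cAMP replicate 1 or control replicate 3. Gldn (gliomedin), which Schwann cell microvilli use to gather sodium channels at nodes, had 65.8, 60.4 and 62.2 RPM in control and 171, 171 and 182 RPM in cAMP libraries (log2 fold change 1.46 ± 0.13, adjusted p = 1.93e-08). Dhh (Desert hedgehog), the signal to the perineurium, had 13.6, 11.3 and 11.2 RPM in control and 96.1, 85.9 and 91.7 RPM in cAMP libraries (log2 fold change 2.83 ± 0.22, adjusted p = 1.27e-09). Both were higher in every treated library. Jam3 and Epb41l2, of the paranodal and internodal junctions, rose by 1.62 and 1.13, and Angptl2, a secreted angiopoietin-like protein, fell by 2.11 on the log2 scale. Of the immature and repair list, 4 were higher and 5 lower of 13 (median -0.17). Ngfr (p75), the neurotrophin receptor of immature Schwann cells, had 2694, 2587 and 2583 RPM in control and 746, 760.1 and 877 RPM in cAMP libraries (log2 fold change -1.72 ± 0.06, adjusted p = 4.29e-15). S100a4, a calcium-binding protein linked to motility, had 4369.5, 4269 and 4087 RPM in control and 1339, 1248 and 1288 RPM in cAMP libraries (log2 fold change -1.71 ± 0.05, adjusted p = 1.21e-16), and its relative S100a10 fell by 0.70 on the log2 scale. Against these, Cd44, the hyaluronan receptor, rose by 0.76 ± 0.13 and Marcks, which tethers actin to the membrane, by 0.87 ± 0.16.

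Measured in RPM instead of folds, the largest gains and losses were at highly used TSSs. Vim (vimentin), the intermediate filament of Schwann cells, had 15370, 14062 and 14529 RPM in control and 19845, 18983 and 18550 RPM in cAMP libraries, a small relative change (log2 fold change 0.38 ± 0.04, adjusted p = 3.42e-08) with the lowest treated library above the highest control. Sod3, the extracellular superoxide dismutase, had 482, 458 and 439 RPM in control and 2148, 2221 and 2299 RPM in cAMP libraries (4.84-fold, log2 fold change 2.27 ± 0.06, adjusted p = 6.14e-17). Crip1, a LIM-domain protein, had 693, 661 and 663 RPM in control and 1986, 2042 and 2073 RPM in cAMP libraries (3.02-fold, log2 fold change 1.60 ± 0.06, adjusted p = 4.40e-15). Both changes were far beyond the spread of the replicates. Among losses, Tuba1a, an α-tubulin of growing cells, had 5229, 5049 and 4972 RPM in control and 3038, 2885 and 2724 RPM in cAMP libraries (log2 fold change -0.82 ± 0.05, adjusted p = 1.34e-11). Malat1, a nuclear long noncoding RNA, had 4094, 5509 and 5816 RPM in control and 3419, 3353 and 3984 RPM in cAMP libraries (log2 fold change -0.51 ± 0.09, adjusted p = 1.48e-04), where the controls spread widely and treated replicate 3 came close to control replicate 1.

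Genes of energy metabolism changed by small amounts. Of 21 carbohydrate genes 6 were higher and 3 lower (median 0.07), with 1 lower without cAMP replicate 2. Ldha, which turns pyruvate into lactate, had 2141, 2051 and 2045 RPM in control and 3877, 3618 and 3414 RPM in cAMP libraries (1.75-fold, log2 fold change 0.80 ± 0.05, adjusted p = 1.06e-10), and Gapdh, of the middle of glycolysis, rose by 0.75 ± 0.08. Both glycolytic gains were shared by all treated libraries. In the pentose phosphate pathway 3 of 4 genes rose (Taldo1 by 0.48). Of 10 genes of the TCA cycle and its side reactions none rose and 2 fell, Idh1 (log2 fold change -0.85 ± 0.16, adjusted p = 2.92e-04) and Me2 (log2 fold change -0.86 ± 0.22, adjusted p = 0.00574, a call lost without cAMP replicate 2 (-0.78) or control replicate 3 (-0.70)). Among 15 antioxidant and iron genes 3 were higher and 5 lower (median -0.25). Besides Mgst2, the NRF2 targets Gstp1, Nqo1 and Prdx1 fell (log2 fold changes -0.73, -0.68 and -0.26), whereas Nfe2l2 itself was higher at its main nerve TSS. The study lists Nfe2l2 among genes with a TSS lower with cAMP.

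Most cytosolic ribosomal protein genes rose by small amounts. Of 47 genes with a ribosomal protein prefix 34 were higher and none lower (median 0.32), and without Rps6kb1, Rps6ka5 and Rps6kb2, which encode kinases, 34 of 44 were higher. The calls ranged from 0.18 to 0.86 on the log2 scale, and 25 of them were kept in all 6 fits without 1 library. Rps18, a protein of the small subunit, had 2226, 2201 and 2182 RPM in control and 3798, 4129 and 4041 RPM in cAMP libraries (1.81-fold, log2 fold change 0.86 ± 0.05, adjusted p = 7.15e-12). Rpl7, of the large subunit, and Rps27l, a relative of a small-subunit protein, rose by 0.72 and 0.72. The groups did not overlap in 33 of the 34, much as in 954 of the 982 called TSSs. Over all 47 tested genes of the list they did not overlap in 37 (36.6% of all tested TSSs did not overlap). Genes of this family have near-identical copies elsewhere in the genome, and reads shared with a copy make their levels uncertain. Translation factors had 5 higher and 6 lower of 28 (median 0.04). Of these, Eif4b, a partner of the helicase of cap-dependent initiation, rose by 1.02 ± 0.21, Eef1a1, the elongation factor, by 0.84 ± 0.12, and Eif4a2, a form of that helicase, fell by 0.65 on the log2 scale. Without cAMP replicate 1 or 2 there were 3 higher translation factors, and without cAMP replicate 2 or control replicate 1 there were 3 lower ones. Of 43 respiratory chain genes 12 were higher and 5 lower (median 0.08), with 6 higher without cAMP replicate 1 and 7 without cAMP replicate 3, control replicate 1 or control replicate 3. Ndufv3 and Ndufa12, of complex I, fell (log2 fold changes -0.79 and -0.69), and Cox7a2, of complex IV, rose by 0.53. Mitochondrial ribosomal genes had 4 higher and 2 lower of 34 (median 0.19), where the higher count was 1 or 2 without cAMP replicate 1, cAMP replicate 3 or control replicate 3 and the lower count 1 without cAMP replicate 1 or 2.

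Endosomal sorting genes were lower or not called. Of 23 genes of the ESCRT, retromer and sorting nexin families 9 were lower and none higher by limma (median -0.47), 4 or 5 were lower without cAMP replicate 2, cAMP replicate 3, control replicate 1 or control replicate 3, and 2 were higher with DESeq2. One of the 9, Vps72, is a chromatin protein that shares only the prefix. Snx7, a sorting nexin, had 28.1, 46.8 and 58.8 RPM in control and 22.9, 13.9 and 18.2 RPM in cAMP libraries (log2 fold change -1.20 ± 0.28, adjusted p = 0.00304) and Vps33a, which tethers endosomes and lysosomes for fusion, had 33.5, 38.2 and 40.6 RPM in control and 14.6, 13.3 and 20.2 RPM in cAMP libraries (log2 fold change -1.19 ± 0.26, adjusted p = 0.00162). In both all treated libraries were below all controls. Of 12 genes of the vacuolar ATPase and lysosome 5 were lower and 1 higher (median -0.15), led by Atp6v1f, a subunit of the proton pump (-0.73). Without cAMP replicate 2, cAMP replicate 3, control replicate 1 or control replicate 2 the lower count was 3, and the higher count was 0 without cAMP replicate 1, cAMP replicate 2 or control replicate 2 and 3 with DESeq2.

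The remaining lists had calls in both directions. For RAB GTPases, proteasome genes and solute carriers the counts were near or below the shares over all genes (13.5% higher and 13.9% lower). They are not read as a trait of these families. RAB GTPases had 2 higher and 2 lower of 19 (median -0.16), of which Rab20 rose by 3.11 ± 0.41 (1 was higher without cAMP replicate 1 or 3, and 1 lower without cAMP replicate 2 or control replicate 2). Proteasome genes also had 2 higher and 2 lower of 19 (median -0.06), and 1 lower without cAMP replicate 1, cAMP replicate 2, control replicate 2 or control replicate 3. Solute carriers had 6 higher and 6 lower of 37 (median -0.05), of which Slc25a32, a mitochondrial folate and FAD carrier, rose by 2.55 ± 0.51 and Slc12a4, a potassium chloride cotransporter, fell by 0.95 on the log2 scale. The lower carriers numbered 3 with edgeR, with no filter and without cAMP replicate 2, control replicate 1 or control replicate 2. Histone genes had 4 higher and 3 lower of 10 (median 0.93), with Hist1h1c, a linker histone, up by 1.45 and H1f0, the linker histone of quiescent cells, down (-0.71). Without cAMP replicate 2 or control replicate 2 the higher histone genes numbered 2, and without cAMP replicate 2, control replicate 1 or control replicate 3 the lower ones numbered 1, and with a mean of at least 5 RPM the median was 0.43.

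At 9 genes TSSs were called in opposite directions (Aldoa, Clic1, Cnp, Cryab, Hp1bp3, Lgi4, Npdc1, S100b and Sema3b). In Clic1, Cryab and Sema3b a call in each direction was kept in all 6 fits without 1 library. The higher calls of Hp1bp3 and S100b were lost without cAMP replicate 1 (0.65) and without cAMP replicate 2 (1.97) respectively. In Aldoa the lower call was lost without cAMP replicate 1 (-0.20), cAMP replicate 2 (-0.20), control replicate 1 (-0.19) or control replicate 2 (-0.20), in Lgi4 the lower call was lost without cAMP replicate 1 (-1.24), control replicate 1 (-1.47), control replicate 2 (-1.33) or control replicate 3 (-1.45), and in Npdc1 the higher call was lost without cAMP replicate 2 (0.20), cAMP replicate 3 (0.20), control replicate 2 (0.18) or control replicate 3 (0.23). Both directions of Cnp lost calls as given above. The main TSS of Cryab averaged 2265 ± 36.5 RPM in control and 103 ± 10.3 RPM in cAMP libraries, whereas a TSS upstream of it (chr8:53775829-53775839, rn5) had 0, 3.55 and 9.35 RPM in control and 29.2, 32.7 and 38.3 RPM in cAMP libraries (log2 fold change 3.24 ± 0.57, adjusted p = 1.72e-04). The upstream TSS was higher in every treated library but stayed below the main one in all 6. Clic1, an intracellular chloride channel protein, fell at its TSS at chr20:7113260-7113288 (324, 312 and 293 RPM in control and 105, 108 and 117 RPM in cAMP libraries, log2 fold change -1.49 ± 0.11, adjusted p = 6.90e-10) and rose at chr20:7122409-7122549 (111, 113 and 117 RPM in control and 174, 164 and 149 RPM in cAMP libraries, log2 fold change 0.51 ± 0.12, adjusted p = 0.00338). In the controls the first of these sites had more reads than the second, and with cAMP the second had more. Another strong Clic1 TSS next to the first (chr20:7113448-7113477) also fell, from 229, 213 and 241 RPM to 120, 78.1 and 97.9 RPM (log2 fold change -1.22 ± 0.14, adjusted p = 7.36e-07). Which part of the gene was used most was not tested. Sema3b, a secreted semaphorin, rose at chr8:115717001-115717025 (371, 370.3 and 361 RPM in control and 769, 676 and 722 RPM in cAMP libraries, log2 fold change 0.97 ± 0.08, adjusted p = 3.14e-09) and fell at chr8:115717138-115717186 (163, 153 and 137 RPM in control and 55.7, 62.8 and 44.4 RPM in cAMP libraries, log2 fold change -1.47 ± 0.16, adjusted p = 2.33e-07). The groups overlapped at neither site. Hp1bp3, a heterochromatin protein, had a fall at one TSS (-0.61) and a rise at the next (0.82).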

How the data were processed

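Tn5Prime libraries of 3 control and 3 cAMP-treated populations of primary Schwann cells were compared, the submitters' labels giving the groups. Per the labels and the study's methods, the authors sequenced them on NovaSeq, trimmed reads with cutadapt (1.14), aligned them with STAR (2.5.2a) to the rn5 build, converted them with SAMtools (1.9), clustered read starts with Paraclu and counted reads per TSS with featureCounts (Subread 1.6.1). Versions are those in the submitters' processing notes. The deposited values are RPM per TSS and library, which the authors scaled to all reads of the library. The deposited table also holds log2 fold changes and FDR-corrected p-values from the authors' edgeR (3.24.3) comparisons, which were not used.

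TSSs above 1 RPM in at least 2 of the 6 libraries were tested on log2(RPM + 1) with limma 3.58.1 (lmFit, eBayes with trend, two-sided) in R 4.3.3, without covariates. Benjamini-Hochberg adjustment covered the 4119 TSSs together, and calls needed an adjusted p under 0.05. Folds are ratios of mean RPM. All RPM values of these libraries were whole multiples of 1 read (100% within 0.01 read), which gave the reads behind each value. For folds, a group at or under 3 reads in every library was set to that floor. Ratios with a counting interval instead compare the summed reads of each group, scaled to its total reads, without the floor. Intervals and floors cover counting error only, since PCR copies were not told apart. The cells came from 1 commercial source, and p-values measure the spread between these populations.

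The members and lists were chosen with earlier results of these data known. Named genes were, in each direction, those at ranks 4 to 25 by log2 fold change among called TSSs without overlap whose higher group averaged 10 RPM or more, the 8 with the largest difference in RPM, the 6 most changed members of each list, and members called against their list's majority. Other genes, such as the remaining cholesterol enzymes and the Gadd45, Col1a1 and Calr values, were named after their values were seen. Some genes that the rule names are not reported here, while counts and medians of lists cover every tested member. Lists with a prefix, such as the ribosomal one, were made from gene symbols. Promoters were the 250 bases before each RefSeq start (GRCr8), matched by symbol for 2278 of 2832 genes. Coordinates of TSSs are those of rn5, and of 908 called TSSs with a RefSeq symbol 7 lay on another chromosome than in RefSeq, among them Dhh and Tuba1a.

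Replicate numbers are shared between groups but did not pair the libraries (correlations of deviations 0.0294, 0.0075 and 0.0379). Alternatives were DESeq2 1.42.0 and edgeR 4.0.16 (quasi-likelihood) on the recovered reads, TMM and median-ratio scaling, a filter at a mean of 5 RPM or none, pseudocounts of 0.1 or 5 RPM, a minimum log2 change of 1 in either direction, sums per gene, a replicate block and leaving out each library. Only the main limma fit was tested on simulated data.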

Additional observations from a re-analysis of the deposited data

How the results depend on the processing

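The 530 higher and 452 lower TSSs became 328 and 219 when a log2 change of 1 or more in either direction was also required. Leaving out 1 library at a time gave 409 to 465 higher and 340 to 390 lower TSSs. The replicate block gave 553 and 467, and since the replicate numbers do not pair these libraries it was not used for the calls. DESeq2 gave 621 and 563, edgeR 425 and 353, a mean of at least 5 RPM 483 and 445, no filter 466 and 381, pseudocounts of 0.1 and 5 gave 484 and 418 and 547 and 472, sums of the TSSs of a gene 416 and 419 of 2853 genes, TMM scaling 537 and 450, and median-ratio scaling 529 and 453. Of 314 TSSs named or held in a list, none reversed its direction, 212 were called in every refit that tested them and 102 lost the call in at least 1, and with the minimum log2 change of 1 counted as well 125 were called throughout. Of the 64 ranked TSSs or TSSs with the largest differences in RPM, 60 were called in every such refit and 54 with the minimum change as well. With 3 libraries a group and a median SD of 0.37 on the log2 scale, small changes at TSSs of a few RPM were not detectable, and genes without a candidate TSS in nerve were not analysed here.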
